A study of Homo sapiens with 36 samples.

Results

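The 68 genes described here encode the 4 classical families of axon guidance cues and their receptors. They were picked from the 28516 gene symbols of the count table by symbol alone, and all 68 had enough reads to be among the 19689 genes tested. They comprise 14 Eph receptors and 8 ephrins, 20 semaphorins with 9 plexins and 2 neuropilins, 3 SLIT ligands with 4 ROBO receptors, and 3 netrins with DCC and the 4 UNC5 receptors.

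Guidance cues steer migrating cells and growing axons by attraction or repulsion through receptors on the cell surface. Ephrins are bound to the membrane and act on Eph receptor tyrosine kinases by cell contact. Semaphorins signal through plexins, which for most secreted members need a neuropilin as the binding subunit. SLIT proteins repel through ROBO receptors, while netrins attract through DCC and repel when UNC5 receptors take part. In the germinal zones of the brain the same molecules are known to hold progenitors in place and to guide newborn neurons.

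RNA was sequenced from cultured human neural stem cells (hNSC) from a commercial source, harvested 48 h after infection with lentivirus, in 6 conditions of 6 libraries each. For MEIS1-OE and MEIS2-OE, 3 viruses delivered CRISPR-activation, a Cas9 that does not cut (dCas-VP64), the activator MPHv2 and a guide RNA, against one of 2 homeodomain transcription factors. For MEIS1-KO and MEIS2-KO, lentiCRISPRv2 carried cutting Cas9 with 2 guides mixed per gene, and the cells were sequenced as a pool from which no clone was picked. Each system had its own control with a non-targeting guide RNA, ctrl-OE or ctrl-KO. Control and perturbed cells thus carried the same vectors and Cas9 protein and differed in the guides. A non-targeting guide directs no cut at a gene, so in the knockouts DNA cutting and MEIS loss cannot be told apart. All libraries came from one hNSC product, and no label states that they were independent cultures, so p-values measure the spread between these libraries, which may be technical.

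The depth of the 36 libraries ranged from 15429985 to 22940493 gene counts. The targeted gene followed the labels: MEIS1 rose by 4.12 on the log2 scale in MEIS1-OE and changed by -1.52 in MEIS1-KO, and MEIS2 rose by 5.19 in MEIS2-OE and changed by -1.10 in MEIS2-KO. Of 10 neural stem cell markers, 9 reached 1 CPM (counts scaled to library size), with NES between 823 and 2115 CPM and SOX2 between 86.4 and 322 CPM. Libraries of one condition differed mainly along the GC content of the exons: the first component held 51.4% of the variance within conditions, with an absolute Spearman correlation of 0.837 with exonic GC over 11767 genes. The libraries farthest along it were MEIS1-OE replicate 3, MEIS1-KO replicate 6 and ctrl-OE replicate 6, and results that rest on them are also given without these 3 libraries.

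Most of the pathway was expressed in cells with no guide against MEIS. In ctrl-OE 52 of the 68 genes had a mean of at least 1 CPM and in ctrl-KO 50, and 38 reached 10 CPM in each. At least 1 CPM was reached by 8 of 8 ephrins in ctrl-OE and by 7 in ctrl-KO, where EFNA1 stayed under it, and by 18 and 16 of 20 semaphorins. Both neuropilins, 7 of 9 plexins and all 4 ROBO genes reached it in both controls. Over all 36 libraries 53 genes had a mean of at least 1 CPM, and 14 stayed under it in every condition. Over all libraries those with a mean under 1 CPM included 6 of 14 Eph receptors, among them EPHA5, EPHA8 and EPHB1, the netrins NTN3 and NTN4, and UNC5A and UNC5D. Levels of different genes are compared as CPM per kilobase of annotated exon, with the exons of all transcripts of a gene merged.

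In ctrl-KO the most abundant member per exonic kilobase was EFNB2, a transmembrane ephrin that is both ligand and reverse signalling receptor, at 91.9 ± 2.13 CPM per kilobase (SD, n = 6). PLXNB2, a plexin for class 4 semaphorins, followed at 52.3 ± 8.72 and EPHA2 at 40.3 ± 4.75, and the spreads of these 2 did not separate them. EFNB3 stood at 34.8 ± 0.700 and EFNA5, a lipid-anchored ephrin, at 29.4 ± 1.93.

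Among the semaphorins the transmembrane SEMA5B led in ctrl-KO with 28.8 ± 2.22 CPM per kilobase. SEMA4C, second of the semaphorins over all libraries, had 15.1 ± 1.55 in ctrl-KO, where the mean of SEMA3C lay between these genes. PLXND1, a receptor for SEMA3E, had 16.02 ± 2.23, and EPHB4, the receptor that prefers EFNB2, had 16.6 ± 1.97. The neuropilins NRP1 and NRP2 had 11.8 ± 0.622 and 7.63 ± 0.355.

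The SLIT and netrin systems were carried by few genes. SLIT2 had 15.7 ± 0.775 CPM per kilobase in ctrl-KO against 0.507 ± 0.0876 for SLIT1, and SLIT3 was under 1 CPM in every condition. ROBO1, the main SLIT receptor, had 9.75 ± 0.526 and ROBO3, the divergent ROBO that modulates midline crossing, had 3.77 ± 0.186. UNC5C and DCC stood at 7.37 ± 0.276 and 6.94 ± 0.314, and their ligand NTN1 at 4.83 ± 0.610, while NTN3, second of its family, had 0.227 ± 0.0944.

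**Figure D1:**
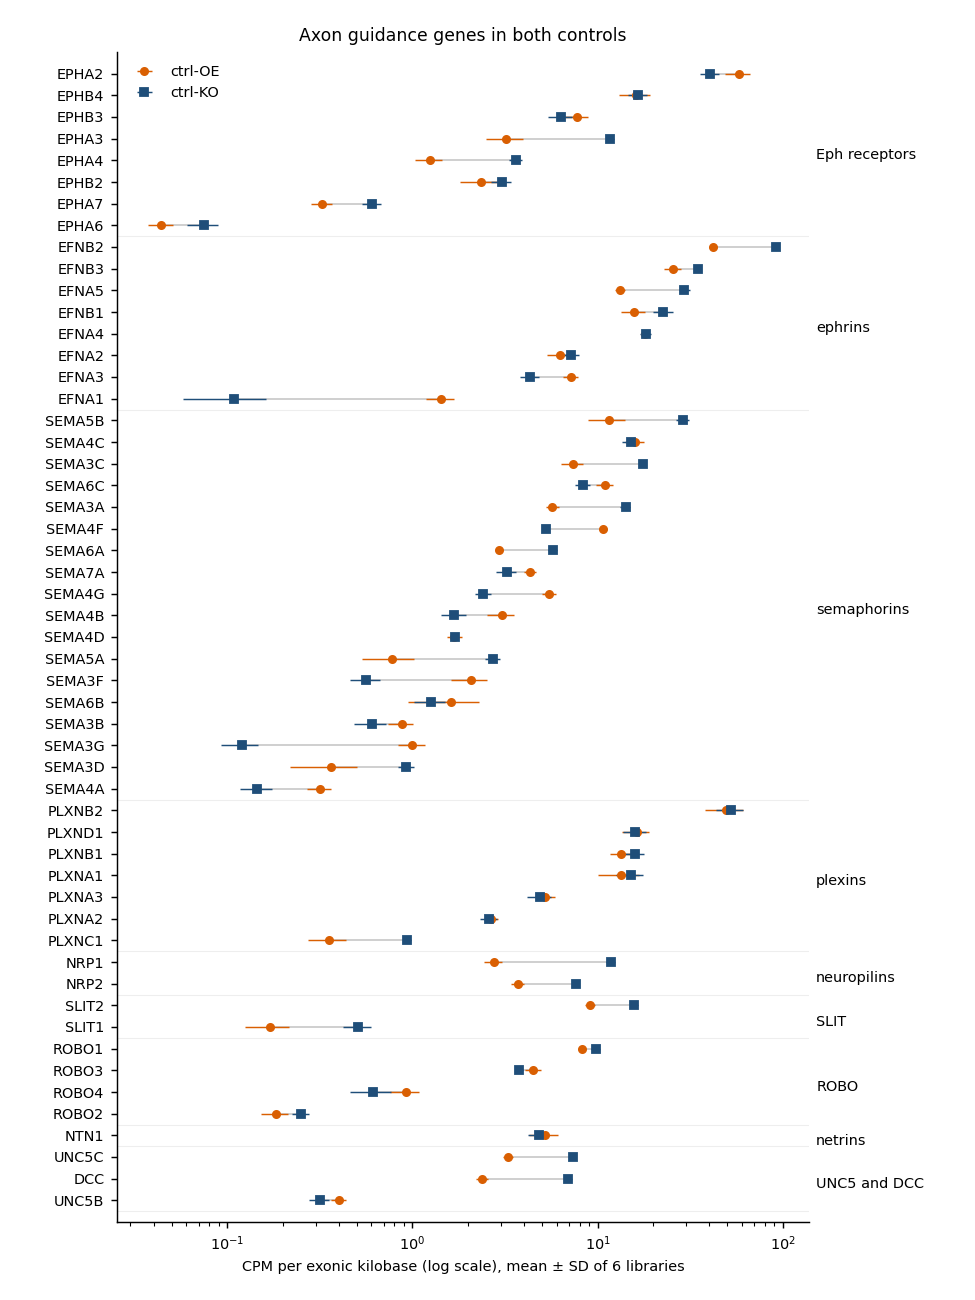
Level of the 53 axon guidance genes with a mean of at least 1 CPM over all libraries, shown in the 2 controls and grouped by family. The x axis is CPM per exonic kilobase on a log scale, with circles for ctrl-OE and squares for ctrl-KO (mean ± SD, 6 libraries each). In ctrl-KO the values run from 0.0749 for EPHA6 to 91.9 for EFNB2, and the distance between the symbols of a gene differs widely between genes.

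MEIS proteins bind the hexamer TGACAG, and the 250 bases before each start of transcription were searched for it on both strands (TGACAG or CTGTCA) in RefSeq promoters of build GRCh38.p14. At least 1 start was found for 58 of the 68 genes, with 90 windows in all. Of these windows 10 (11.1%), from 9 genes, held the hexamer, against 13.03% of all 35116 windows. The longer PBX-MEIS motif, in which TGAT directly precedes TGACAG, was in 0 of the 58 and in 0.134% of all promoters. Promoters are printed for 4 genes that passed the test in MEIS1-OE below, 2 with the hexamer and 2 without it, on the strand of the gene from 5′ to 3′ and ending at the base before the start, with the hexamer in capitals. EFNB2 (chr13:106535663-106535912, minus strand) holds it 18 and 164 bases before its start, and PLXNA2 (chr1:208244385-208244634, minus strand) holds it 142 bases before. EPHA4 (chr2:221572305-221572554, minus strand, one of 2 listed starts, neither with a match) and NRP2 (chr2:205682251-205682500, plus strand) hold none in this window.
EFNB2: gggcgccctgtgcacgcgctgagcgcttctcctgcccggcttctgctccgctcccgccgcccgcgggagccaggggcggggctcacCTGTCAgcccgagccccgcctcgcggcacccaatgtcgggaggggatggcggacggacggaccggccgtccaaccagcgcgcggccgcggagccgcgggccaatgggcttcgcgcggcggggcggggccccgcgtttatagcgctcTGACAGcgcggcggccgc
PLXNA2: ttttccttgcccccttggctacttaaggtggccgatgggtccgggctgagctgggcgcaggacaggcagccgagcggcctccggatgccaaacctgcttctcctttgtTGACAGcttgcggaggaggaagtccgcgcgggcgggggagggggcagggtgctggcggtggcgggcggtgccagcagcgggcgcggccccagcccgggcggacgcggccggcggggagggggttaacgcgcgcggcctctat
EPHA4: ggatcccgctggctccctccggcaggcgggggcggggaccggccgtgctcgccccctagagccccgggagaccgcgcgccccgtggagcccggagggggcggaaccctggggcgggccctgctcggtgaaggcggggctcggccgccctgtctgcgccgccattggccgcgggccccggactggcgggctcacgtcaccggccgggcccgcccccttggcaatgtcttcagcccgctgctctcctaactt
NRP2: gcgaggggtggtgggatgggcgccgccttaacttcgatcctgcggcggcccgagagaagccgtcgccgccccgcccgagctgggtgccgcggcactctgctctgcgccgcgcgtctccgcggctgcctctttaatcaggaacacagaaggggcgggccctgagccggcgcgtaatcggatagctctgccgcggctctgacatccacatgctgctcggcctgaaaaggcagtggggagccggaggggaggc
A match of these letters does not show that MEIS binds there. The study mapped MEIS binding by ChIP-seq in untreated hNSC and found most sites far from starts of transcription. Its sites were not compared with the matches here.

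To see which guidance genes responded to more MEIS1 or MEIS2, each overexpression was compared with ctrl-OE. The receptor EPHA4 rose in both, NRP2 rose in both, and the transmembrane semaphorin SEMA6A rose in both and more so in MEIS2-OE, while EPHA7 fell in both. Genes with an adjusted p under 0.05 in edgeR's quasi-likelihood test are said to have passed the test, and those that also differed by more than 0.58 on the log2 scale are called. In MEIS1-OE 1 of the 68 was called and 9 passed the test, 7 higher and 2 lower, where 2.84% of all genes tested were called, 5.52% passed higher and 3.58% passed lower. In MEIS2-OE 2 were called and 5 passed, 4 higher and 1 lower, against 0.498% called, 1.07% passing higher and 0.279% lower among all genes. The median log2 fold change of the 68 was 0.05 in MEIS1-OE and -0.06 in MEIS2-OE, beside -0.0013 and -0.0093 over all genes. Both overexpressions share the 6 ctrl-OE libraries, so their values are placed side by side. Of 9 marker lists the neural crest list was higher in MEIS1-OE without overlap. Its sum was 33.9 to 40.6 CPM against 30.0 to 33.4 CPM in ctrl-OE. Only 2 of its 6 markers had a mean of at least 1 CPM over all libraries, with FOXD3 under 0.1 CPM. The part of this list in the results was not tested.

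EPHA4 (GRCh37 chr2:222282747-222438922), an Eph receptor that binds ephrins of both classes, had 7.73, 9.36 and 11.1 CPM in ctrl-OE (lowest, median and highest of 6 libraries). It had 12.7, 14.8 and 20.8 CPM in MEIS1-OE and 15.9, 17.4 and 19.1 CPM in MEIS2-OE. Every library of both overexpressions lay above all ctrl-OE libraries. The log2 fold change was 0.71 ± 0.10 (edgeR adjusted p = 8.77e-07) for MEIS1-OE and 0.90 ± 0.10 (edgeR adjusted p = 1.74e-08) for MEIS2-OE, the values after ± being standard errors. One MEIS1-OE library, replicate 3, was the highest: without replicate 3 of every condition the log2 fold change was 0.55 (edgeR adjusted p = 1.80e-05), which no longer exceeds 0.58, and without the 3 libraries farthest in GC it was 0.66. In bulk RNA more cells with EPHA4 and more EPHA4 RNA per cell cannot be told apart, which holds for each gene below.

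SEMA6A (chr5:115779251-115910519), a transmembrane semaphorin that acts on PLXNA2 and PLXNA4, had 29.9, 32.2 and 33.1 CPM in ctrl-OE. In MEIS1-OE it had 34.5, 37.8 and 41.5 CPM and in MEIS2-OE 46.1, 50.3 and 53.2 CPM. The 3 conditions did not overlap and were ordered ctrl-OE, MEIS1-OE, MEIS2-OE. The log2 fold change was 0.25 ± 0.05 (edgeR adjusted p = 6.38e-04) in MEIS1-OE, a 1.19-fold level, and 0.65 ± 0.05 (edgeR adjusted p = 4.16e-12) in MEIS2-OE, a 1.56-fold level.

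NRP2 (chr2:206546714-206662857), the neuropilin that binds SEMA3F and SEMA3G, had 46.5, 51.2 and 57.9 CPM in ctrl-OE. It had 64.5, 70.01 and 77.4 CPM in MEIS1-OE and 64.1, 70.4 and 74.7 CPM in MEIS2-OE, again above all controls. The increases were of like size, with log2 fold changes of 0.44 ± 0.06 (edgeR adjusted p = 1.25e-07) and 0.43 ± 0.06 (edgeR adjusted p = 9.55e-07). Its sister NRP1 had 31.6 ± 3.58 CPM in ctrl-OE, 33.8 ± 2.08 in MEIS1-OE and 27.8 ± 2.10 in MEIS2-OE (mean ± SD, n = 6) and passed the test against ctrl-OE in neither.

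EPHA7 (chr6:93949738-94129405), an Eph receptor for A-class ephrins, was the only gene of the 68 that passed lower in both overexpressions. It had 4.07, 5.47 and 6.14 CPM in ctrl-OE, 3.22, 3.71 and 4.32 CPM in MEIS1-OE and 2.88, 3.79 and 4.48 CPM in MEIS2-OE. Its ranges overlapped with that of ctrl-OE, in which replicate 3 was the lowest library. The log2 fold changes were -0.49 ± 0.12 (edgeR adjusted p = 0.00665) and -0.54 ± 0.13 (edgeR adjusted p = 0.0118), and the second was lost when replicate 2, 4, 5 or 6 was left out.

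MEIS1-OE had further genes that passed. SEMA3G, a secreted semaphorin, went from 3.79, 4.998 and 6.24 CPM in ctrl-OE to 6.71, 7.11 and 8.27 CPM, without overlap, and its log2 fold change was 0.53 ± 0.11 (edgeR adjusted p = 7.61e-04). PLXNA2, a plexin for SEMA6A and class 3 semaphorins, went from 32.9, 37.5 and 40.3 to 34.3, 49.9 and 61.4 CPM (0.42 ± 0.09 on the log2 scale), with 5 of 6 libraries above all controls and replicate 3 the lowest. EFNB2 rose by 0.17 ± 0.04 on the log2 scale, from 200.0, 208 and 226 to 228, 237 and 251 CPM, a small change whose groups did not overlap. SEMA7A, a lipid-anchored semaphorin, rose by 0.37 ± 0.09, and SEMA4F had a log2 fold change of -0.16 ± 0.05. SEMA4F was lost in 4 of 15 alternatives (edgeR adjusted p up to 0.112) and SEMA7A without replicate 4 (0.0539). For EFNB2, 36.4% of the exonic length is also covered by an annotated gene on the opposite strand, and the strand setting of the counting is not given in the sources used here.

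ROBO3 passed in MEIS2-OE and had a log2 fold change of 0.10 in MEIS1-OE. Its level was 27.1, 31.2 and 35.8 CPM in ctrl-OE and 36.9, 41.4 and 48.9 CPM in MEIS2-OE. The groups did not overlap, and the log2 fold change was 0.44 ± 0.08 (edgeR adjusted p = 7.82e-04). SEMA3A, the secreted repellent that acts through NRP1, had 52.8 ± 4.30 CPM in ctrl-OE and 63.6 ± 3.81 CPM in MEIS2-OE (mean ± SD, n = 6), which did not pass the test (log2 fold change 0.27, edgeR adjusted p = 0.0553). Without the 3 libraries farthest in GC, 22 of the 68 (32.4%) passed in MEIS1-OE, beside 18.4% of all genes in the same fit, and 2 were called (SEMA3G was added), beside 3.87%. Of the 3 netrins and the 5 UNC5 and DCC genes 0 passed in either overexpression, beside 9.1% of all genes in MEIS1-OE and 1.35% in MEIS2-OE. NTN3, NTN4, UNC5A and UNC5D were under 1 CPM, and with so few genes this count is no result about these families.

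**Figure D2:**
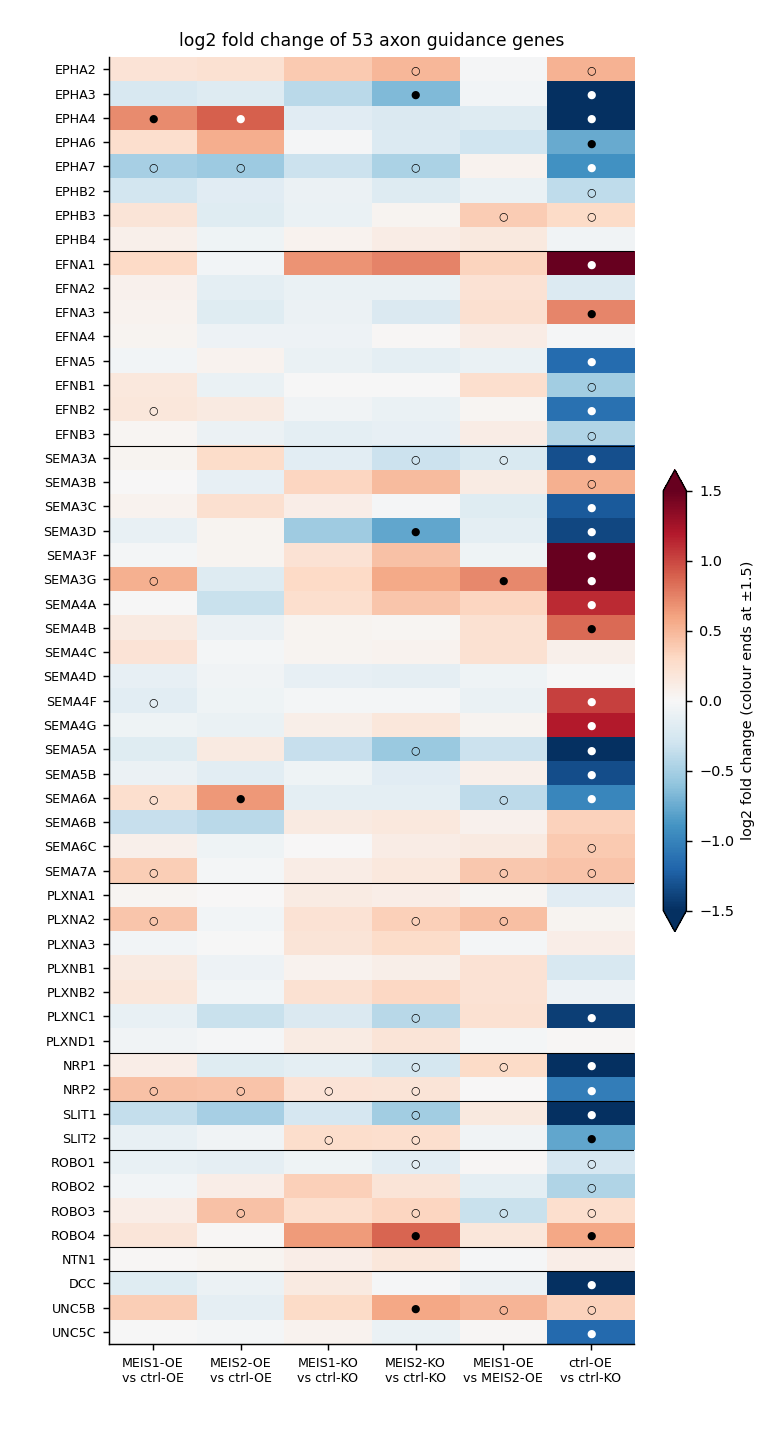
Log2 fold change of the 53 genes with a mean of at least 1 CPM (rows, with lines between families) in 6 comparisons (columns), red for higher and blue for lower in the first condition, with the colour ending at ±1.5. Filled circles mark called genes and open circles genes that passed at adjusted p alone. EPHA4 is filled in both overexpression columns, and the column of ctrl-OE against ctrl-KO has 28 filled circles.

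Whether the same genes responded to loss of MEIS1 or MEIS2 was examined in the knockouts, with ctrl-KO as reference. In MEIS2-KO 4 guidance genes were called, with EPHA3 and SEMA3D lower and ROBO4 and UNC5B higher, and in MEIS1-KO none was called. Of the 68, 16 passed the test in MEIS2-KO, 7 higher and 9 lower, beside 1.58% called, 4.04% passing higher and 5.98% lower among all genes. In MEIS1-KO 2 passed, SLIT2 and NRP2, both higher, beside 0.29% called, 1.03% passing higher and 0.432% lower. In edgeR 18 of the 68 (26.5%) had an unadjusted p under 0.05 in MEIS1-KO, beside 11.6% of all genes, and DESeq2 called 1, ROBO4, there. The median log2 fold change of the 68 was 0.05 in MEIS1-KO and 0.05 in MEIS2-KO, beside 0.0033 and -0.01 over all genes. Both knockouts share the 6 ctrl-KO libraries. Of 9 marker lists the summed level of 2 was higher in MEIS2-KO without overlap, the neural stem cell list (4504 to 4999 CPM in ctrl-KO, 5038 to 6122 CPM in MEIS2-KO) and the endothelial list. The other 7, and all 9 in MEIS1-KO, overlapped with ctrl-KO, and their part in the results was not tested.

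EPHA3 (chr3:89156771-89531284), an Eph receptor with high affinity for EFNA5, had 69.5, 77.98 and 81.4 CPM in ctrl-KO. It had 44.8, 48.05 and 53.1 CPM in MEIS2-KO, with every library below every control, and 47.05, 60.1 and 68.2 CPM in MEIS1-KO. The log2 fold change was -0.66 ± 0.12 (edgeR adjusted p = 4.43e-04) in MEIS2-KO and -0.40 ± 0.12 (edgeR adjusted p = 0.0879) in MEIS1-KO. EPHA7 had a log2 fold change of -0.47 ± 0.11 (edgeR adjusted p = 0.00566) in MEIS2-KO, so that it passed lower both with more and with less MEIS2.

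The secreted class 3 semaphorin SEMA3D (chr7:84624869-84816372) fell from 6.42, 7.85 and 8.55 CPM in ctrl-KO to 3.01, 4.43 and 5.48 CPM in MEIS2-KO. The groups did not overlap, and the log2 fold change was -0.78 ± 0.18 (edgeR adjusted p = 0.00451). SEMA3A lies near it on chromosome 7 (chr7:83585093-84122040) and fell by less, from 119.8, 134 and 140.1 to 98.8, 106 and 109.8 CPM, with a log2 fold change of -0.33 ± 0.07 (edgeR adjusted p = 0.00249). Their receptor subunit NRP1 went from 131, 134 and 150.0 to 108, 113 and 120.2 CPM, also without overlap (-0.26 ± 0.06 on the log2 scale). The other members that passed lower in MEIS2-KO were SEMA5A (-0.56), SLIT1 (-0.52), PLXNC1 (-0.42) and ROBO1 (-0.16), all as log2 fold changes. With 1 replicate left out SLIT1 was lost in 4 alternatives (edgeR adjusted p up to 0.149), PLXNC1 in 3 (up to 0.110), SEMA5A in 2 (up to 0.0584) and ROBO1 in 4, and ROBO1 was also lost with an offset for exonic GC (-0.07, edgeR adjusted p = 0.210).

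ROBO4, a ROBO family member best known from blood vessels, and ROBO3 are neighbours on chromosome 11 (chr11:124753587-124768396, minus strand, and chr11:124735328-124751367, plus strand), and both passed higher in MEIS2-KO. ROBO4 had 3.09, 3.86 and 6.02 CPM in ctrl-KO and 5.48, 7.71 and 8.77 CPM in MEIS2-KO. Of the MEIS2-KO libraries 5 of 6 lay above all controls, of which replicate 4 was high, and the log2 fold change was 0.88 ± 0.19 (edgeR adjusted p = 0.00227). In MEIS1-KO ROBO4 had a log2 fold change of 0.64 ± 0.19 (edgeR adjusted p = 0.0937), with 4.10, 5.67 and 10.5 CPM. The highest of these was replicate 6, among the 3 libraries farthest in GC, and the next had 7.79 CPM. Without these 3 libraries ROBO4 was not called in MEIS1-KO. An annotated gene on the opposite strand covers 18.0% of its exonic length. The summed endothelial markers ranged from 169.8 to 185.5 CPM in ctrl-KO and from 205.5 to 252.9 CPM in MEIS2-KO over 6 genes. Of these CLDN5 was under 0.1 CPM and PECAM1 lay between 0.489 and 2.10 CPM over all libraries, so other genes made up most of the sum. ROBO3 had 24.9, 26.1 and 28.5 CPM in ctrl-KO and 30.3, 32.8 and 36.6 CPM in MEIS2-KO (0.32 ± 0.08, edgeR adjusted p = 0.00888).

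UNC5B, a netrin receptor, was called in MEIS2-KO by a narrow margin, with 1.91, 2.06 and 2.59 CPM in ctrl-KO and 2.54, 3.23 and 3.77 CPM in MEIS2-KO. In MEIS2-KO 5 of 6 libraries lay above all controls. The log2 fold change of 0.5806 ± 0.14 (edgeR adjusted p = 0.00576) lost its call in 8 of the 15 alternatives of the analysis. Among them were the replicate block (0.5797), the offset for exonic GC (0.49) and the fit without the 3 libraries farthest in GC (0.5796). That fit called 3 members in MEIS2-KO, beside 1.92% of all genes. None of the 3 libraries left out is of MEIS2-KO or ctrl-KO, so that fit is no check of GC content in this comparison. EPHA2, a receptor for A-class ephrins, rose without overlap from 132, 170.1 and 192 to 205, 240.0 and 266 CPM (0.50 ± 0.13 on the log2 scale). PLXNA2 passed higher in MEIS2-KO as well (0.36 ± 0.09), except without replicate 2 (edgeR adjusted p = 0.0731).

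SLIT2 (chr4:20253528-20622184) was the guidance gene that passed in both knockouts and in neither overexpression. It had 162, 173 and 188 CPM in ctrl-KO, 188, 210.2 and 216 CPM in MEIS1-KO and 182, 206 and 227 CPM in MEIS2-KO. In each knockout 5 of 6 libraries lay above all controls. The log2 fold changes were 0.26 ± 0.05 (edgeR adjusted p = 0.00716) and 0.25 ± 0.05 (edgeR adjusted p = 0.00238), and the first was lost without replicate 3 or 5 (edgeR adjusted p up to 0.0847). NRP2 passed higher in both knockouts too, by 0.21 ± 0.05 and 0.20 ± 0.05. It was the 1 gene of the 68 that passed in all 4 perturbations (1.47%, beside 0.0914% of all genes), each time higher. In MEIS2-KO it was lost without replicate 4 (edgeR adjusted p = 0.0629). In MEIS1-KO it was lost in 7 of 15 alternatives, among them each replicate left out (edgeR adjusted p = 0.0521 without the 3 libraries farthest in GC).

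**Figure D3:**
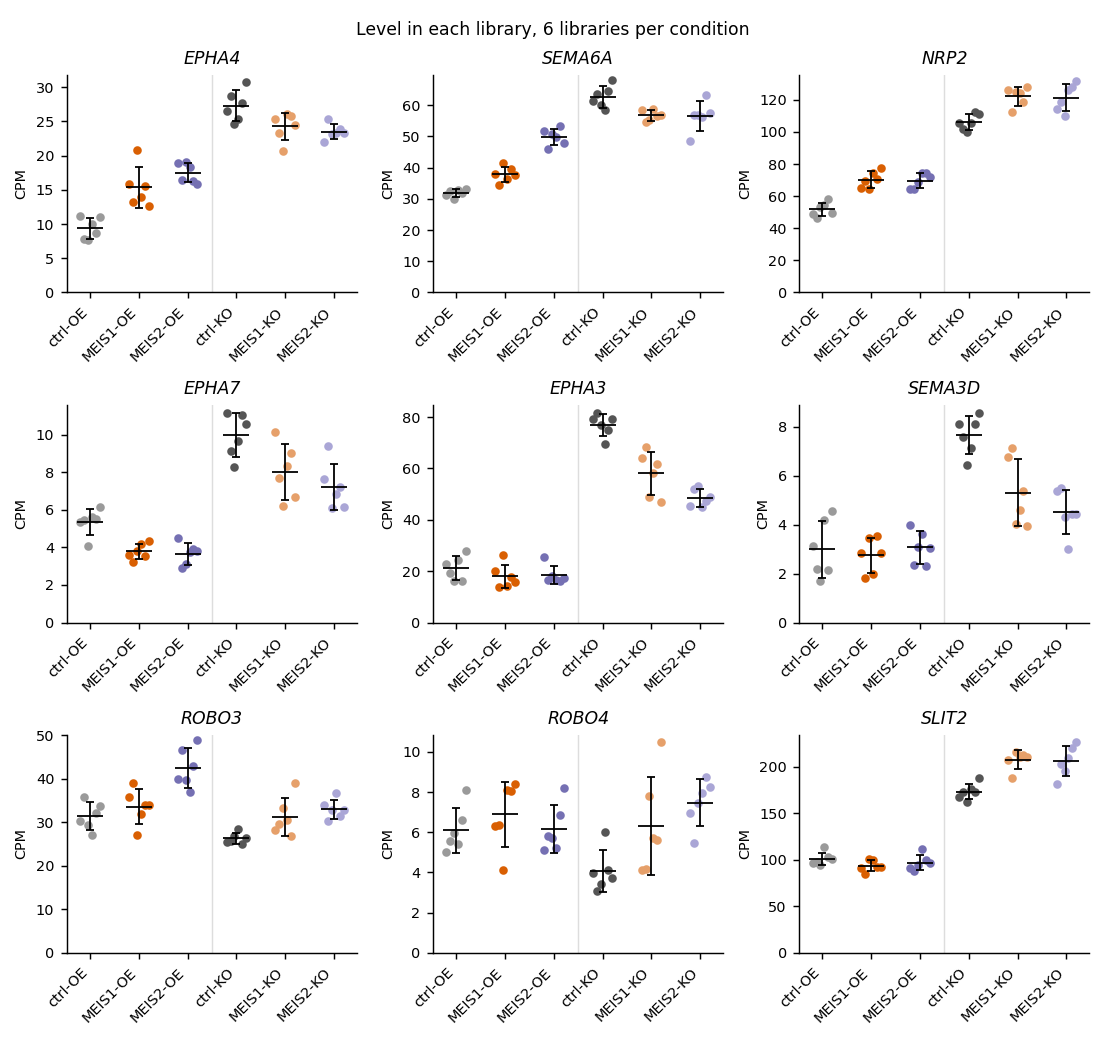
CPM of 9 guidance genes in each of the 36 libraries, with one panel per gene and one column per condition. Points are libraries and black marks are the mean ± SD of 6 libraries. EPHA4, SEMA6A and NRP2 are higher in both overexpressions than in ctrl-OE and all 3 stay below ctrl-KO, and EPHA3 and SEMA3D are lower in MEIS2-KO than in ctrl-KO.

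Across the 4 perturbations 22 of the 68 genes passed the test at least once and 6 were called at least once, 7 passed in at least 2, and 46 passed in none. Of all genes tested 17.7% passed at least once, 4.55% were called at least once and 3.61% passed in at least 2, against 32.4%, 8.82% and 10.3% of the 68. Many of the abundant members were among those 46: EPHB4, for example, had 103 ± 19.8 CPM in ctrl-OE, 109 ± 15.1 in MEIS1-OE and 98.7 ± 10.5 in MEIS2-OE (mean ± SD, n = 6). PLXNB2, PLXND1, SEMA4C, SEMA5B, EFNB3 and NTN1 also passed in none. A test that did not pass does not show that a gene was unchanged. EFNB3 lay lower in MEIS1-KO without overlap, at 95.6, 101 and 105 against 109, 112 and 115 CPM in ctrl-KO, with a log2 fold change of -0.15 ± 0.05 (edgeR adjusted p = 0.147). PLXNB2 had an SD of 84.6 CPM on a mean of 361 CPM in ctrl-OE alone.

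The contrast used to define genes under control of MEIS subtracts the knockout effect from the overexpression effect. For MEIS1 it called EPHA4, with 5 of the 68 passing (3 positive, 2 negative), and for MEIS2 it called EPHA4, SEMA6A, SEMA3A and UNC5B, with 6 passing (4 positive, 2 negative). Among all genes 1.41% were called for MEIS1, 2.35% passed with a positive contrast and 1.14% with a negative one. For MEIS2 these shares were 0.985%, 1.39% and 1.18%. EPHA4 had contrasts of 0.88 ± 0.13 (edgeR adjusted p = 1.95e-05) and 1.12 ± 0.13 (edgeR adjusted p = 3.42e-07), and SEMA6A of 0.39 ± 0.07 (edgeR adjusted p = 3.56e-04) and 0.79 ± 0.07 (edgeR adjusted p = 3.27e-10). In the knockouts themselves the log2 fold changes of EPHA4 were -0.17 and -0.21 and those of SEMA6A -0.14 and -0.15, which did not pass.

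SEMA3A had a MEIS2 contrast of 0.60 ± 0.10 (edgeR adjusted p = 2.93e-04), made of a log2 difference of 0.27 in MEIS2-OE and -0.33 in MEIS2-KO. It was 0.45 with the offset for exonic GC, at which it passed without being called. UNC5B went the other way, with a MEIS2 contrast of -0.72 ± 0.19 (edgeR adjusted p = 0.0343) that was lost when replicate 1, 2, 4, 5 or 6 was left out. SLIT2 had negative contrasts for both factors, -0.37 ± 0.08 for MEIS1 and -0.31 ± 0.08 for MEIS2, and EFNB2 positive ones, 0.22 ± 0.05 and 0.23 ± 0.05. The MEIS2 contrast of SLIT2 was lost without replicate 2, 5 or 6 (edgeR adjusted p up to 0.141), and those of EFNB2 in 3 alternatives each, all with a replicate left out (up to 0.0723 and 0.0823). DCC, the netrin receptor, passed in the MEIS1 contrast alone of the 4 perturbation comparisons and 2 contrasts (-0.31 ± 0.09, edgeR adjusted p = 0.0388), and was lost without replicate 1, 2, 4 or 5 (up to 0.269). NRP2 passed in neither contrast (0.24 and 0.24), being higher in overexpression and in knockout. Without the 3 libraries farthest in GC, 7 members were called in the MEIS2 contrast, beside 1.32% of all genes, with SEMA3D, SEMA5A and ROBO4 added.

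Whether the paralogs differed was tested directly, MEIS1-OE against MEIS2-OE, a comparison in which the control cancels. Of the 68 genes 1 was called and 9 passed, 6 higher and 3 lower in MEIS1-OE, beside 2.7% called, 4.93% passing higher and 2.82% lower among all genes. SEMA3G was higher in MEIS1-OE by 0.72 ± 0.11 (edgeR adjusted p = 1.02e-05), with 6.71, 7.11 and 8.27 CPM against 3.60, 4.54 and 4.93 CPM and no overlap. PLXNA2 (0.45), UNC5B (0.50), SEMA7A (0.41), EPHB3 (0.38) and NRP1 (0.28) were higher in MEIS1-OE on the log2 scale. SEMA6A was lower in MEIS1-OE, with a difference of -0.40 ± 0.05 (edgeR adjusted p = 2.09e-07), as were ROBO3 (-0.34) and SEMA3A (-0.23). SEMA3A was lost in 6 of 15 alternatives (edgeR adjusted p up to 0.281), UNC5B in 3 (up to 0.117) and EPHB3 in 2 (up to 0.101). Without the 3 libraries farthest in GC 21 of the 68 passed (30.9%, beside 15.3% of all genes) and 3 were called (beside 3.37%), with PLXNA4 and UNC5B added. EPHA4 did not pass this comparison, with a difference of -0.19 ± 0.09 (edgeR adjusted p = 0.271), and NRP2 differed by 0.01 ± 0.05. For MEIS1-KO against MEIS2-KO edgeR and DESeq2 passed none of the 68, where 0.0102% of all genes were called and 0.0152% passed in edgeR. An unadjusted p under 0.05 was found for 5 of the 68 (7.35%) and 5.68% of all genes.

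The largest differences among guidance genes were between the 2 controls. Neither carried a guide against MEIS, yet the log2 difference of ctrl-OE from ctrl-KO was -0.53 for MEIS1 (edgeR adjusted p = 5.84e-08) and -0.19 for MEIS2 (edgeR adjusted p = 0.00159), and the part of these differences was not tested. Members that lay lower in ctrl-OE than in ctrl-KO included NRP1, DCC, EPHA3, EPHA4 and both SLIT genes above 1 CPM, and members that lay higher included EFNA1 and the semaphorins SEMA3G and SEMA3F. Of the 68, 31 were called, 12 higher and 19 lower in ctrl-OE. Of all genes tested 22.1% were called, 13.0% higher and 9.15% lower. At adjusted p alone 43 of the 68 passed, 19 higher and 24 lower, beside 27.5% and 23.9% of all genes. The median log2 fold change was -0.07 over the 68 and 0.05 over all genes. The activation and knockout systems differ in the number and kind of viruses, so vector, Cas9 variant and any difference in the handling of the cells cannot be told apart here.

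NRP1 had 28.3, 30.8 and 35.9 CPM in ctrl-OE and 131, 134 and 150.0 CPM in ctrl-KO. The gap was wide against the spread, at a log2 fold change of -2.10 ± 0.06 (edgeR adjusted p = 2.71e-26), or 4.29-fold lower in ctrl-OE. DCC, at 28.1, 31.6 and 34.4 against 85.3, 90.96 and 97.3 CPM, was 2.92-fold lower (-1.54 ± 0.06 on the log2 scale). UNC5C, its partner in repulsion, was 2.25-fold lower, at 32.6, 34.2 and 38.2 against 75.6, 77.97 and 84.2 CPM.

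The ephrins split. EFNB2 was 2.18-fold lower in ctrl-OE (-1.12 ± 0.04, edgeR adjusted p = 8.41e-24) and EFNA5 2.23-fold lower, whereas EFNA1 had 0.113, 0.243 and 0.367 CPM in ctrl-KO and 2.19, 3.16 and 3.66 CPM in ctrl-OE. EFNA1 was thus 12.6-fold higher in ctrl-OE (3.66 ± 0.21, edgeR adjusted p = 1.32e-17), with 2 to 7 reads per library in ctrl-KO. EFNA3 was called higher too, though 43.9% of its exonic length is shared with another gene on its strand.

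Semaphorins also moved both ways. SEMA3G had 0.394, 0.656 and 0.733 CPM in ctrl-KO and 3.79, 4.998 and 6.24 CPM in ctrl-OE, and was 8.28-fold higher in ctrl-OE (3.05 ± 0.16, edgeR adjusted p = 1.22e-18). SEMA3F, like SEMA3G a ligand of NRP2, was 3.67-fold higher, SEMA4G 2.28-fold and SEMA4F 2.04-fold. Lower in ctrl-OE were SEMA5A (-1.82 on the log2 scale), SEMA3D (-1.37), SEMA5B (-1.33), SEMA3A (-1.31), SEMA3C (-1.26) and SEMA6A (-0.97). For SEMA4G 28.1% of the exonic length is covered by genes on the opposite strand.

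Of their receptors PLXNC1, at -1.41, was the 1 plexin of 9 that passed, and the log2 fold changes of the other 8 lay between -0.27 and 0.10. Of 14 Eph receptors 4 were called lower in ctrl-OE and 3 higher, beside 9.15% and 13.0% of all genes. EPHA3 (-1.86), EPHA4 (-1.54), EPHA7 (-0.90) and EPHA6 (-0.76) were lower. EPHA1 (1.15), EPHA10 (2.03) and EPHB6 (2.03) were higher, with means of only 0.41, 0.14 and 0.11 CPM over all libraries. EPHA10 was lost without replicate 4 and EPHB6 without replicate 3 or 5 (edgeR adjusted p up to 0.0685). EPHA2 (0.52) and EPHB3 (0.28) passed higher without being called, and EPHB2 (-0.38) lower. EPHA4, SEMA6A, NRP2 and EFNB2, which rose in MEIS1-OE, stayed below their ctrl-KO level there: EPHA4 had 15.3 ± 2.97 CPM in MEIS1-OE and 27.3 ± 2.26 CPM in ctrl-KO (mean ± SD, n = 6).

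Markers of cell identity moved with the same comparison. The summed level of 10 neural stem cell markers ranged from 3020 to 3903 CPM in ctrl-OE and from 4504 to 4999 CPM in ctrl-KO. That of 9 neuronal markers ranged from 547 to 749 CPM in ctrl-OE and from 1148 to 1180.0 CPM in ctrl-KO, with RBFOX3 and STMN2 under 0.1 CPM. That of 7 mesenchymal markers ranged from 272 to 445 CPM and from 643 to 847 CPM. Of 9 marker lists 6 were lower in ctrl-OE without overlap, these 3 and the astrocyte, endothelial and pluripotent lists. Only 2 of 6 astrocyte and 2 of 5 pluripotent markers had a mean of at least 1 CPM over all libraries. ALDH1L1, SLC1A2, POU5F1, NANOG and TDGF1 were under 0.1 CPM, so the astrocyte and pluripotent sums rest on few genes. The neural crest and oligodendrocyte lists overlapped. The microglia and leukocyte list was higher, at 1.70 to 2.33 against 0.890 to 1.504 CPM with PTPRC, CSF1R and CX3CR1 under 0.1 CPM. The part of these lists in the guidance genes was not tested.

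The called genes of this comparison also differed in structure. The 19 genes called lower in ctrl-OE spanned a median of 188 kb in the genome with a median exonic GC of 43.6%, and 18 of them were longer than 100 kb. The 12 called higher spanned a median of 17.5 kb with a median GC of 58.2%, and 0 of them exceeded 100 kb. Over the 53 genes at 1 CPM or more the Spearman correlation of the log2 fold change was -0.655 with span and 0.618 with exonic GC, against -0.281 and 0.253 over 12535 genes. Genes share libraries and are not independent replicates, and span and GC are themselves related, so these values are descriptions. With the offset for exonic GC 32 members were called, beside 22.0% of all genes in that fit. Without the 3 libraries farthest in GC also 32 were called (EFNB1 and EPHB1 added, ROBO4 lost), beside 22.1%. Over 15 alternatives the log2 fold change of NRP1 lay between -2.14 and -2.03. ROBO4, called higher at 0.58, lost its call in 8 of them.

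In MEIS2-KO the log2 fold change also followed exonic GC, with a Spearman correlation of 0.508 over the 53 genes, close to 0.532 over all 12535. It was -0.593 in the MEIS2 contrast (-0.563 over all 12535) and 0.476 in MEIS1-OE against MEIS2-OE (0.415). For MEIS1-KO against MEIS2-KO it was -0.651 (-0.539), and for MEIS1-KO 0.360 (0.349). MEIS1-OE had 0.215 (0.261), MEIS2-OE -0.226 (-0.235) and the MEIS1 contrast -0.190 (-0.0198). The 9 members that passed lower in MEIS2-KO had between 37.2% and 57.8% exonic GC. After the offset EPHA3 had a log2 fold change of -0.54 (edgeR adjusted p = 7.99e-05), SEMA3D -0.65 (edgeR adjusted p = 0.00392) and ROBO4 0.82 (edgeR adjusted p = 5.21e-05). For EPHA4 the offset gave 0.70 in MEIS1-OE and 0.90 in MEIS2-OE, and for SEMA6A 0.24 and 0.64.

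**Figure D4:**
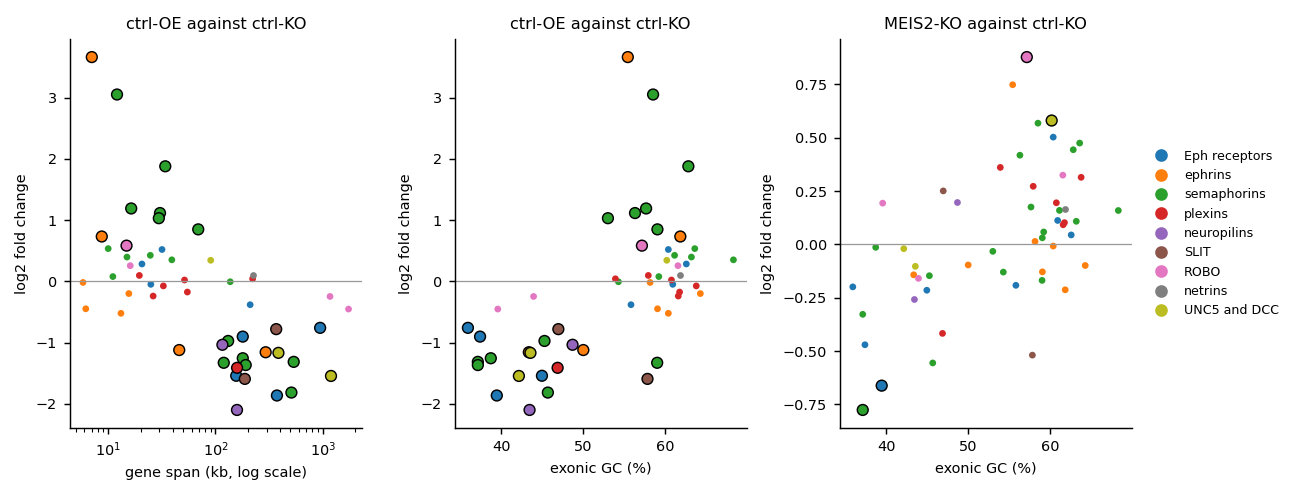
Log2 fold change of the 53 guidance genes against gene span (kb, log scale) and exonic GC (%) for ctrl-OE against ctrl-KO, and against exonic GC for MEIS2-KO against ctrl-KO. Each point is a gene coloured by family, and larger outlined points are called genes. The 19 genes called lower in ctrl-OE have a median span of 188 kb. The 12 called higher among all 68 have a median of 17.5 kb, and 9 of them are plotted.

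A list of 31 other guidance ligands, adhesion molecules and receptors and 47 intracellular effectors was examined alongside. Of the former 30 were tested, and 4 passed in MEIS1-OE (3 higher, 1 lower), 1 in MEIS2-OE (higher), 4 in MEIS1-KO (2 higher, 2 lower) and 8 in MEIS2-KO (4 higher, 4 lower). Over all genes tested 9.1%, 1.35%, 1.46% and 10.0% passed in these comparisons, which is also the background of the effectors. NTNG1, a membrane-anchored relative of the netrins, had 0.511 CPM in ctrl-OE and 1.99 CPM in MEIS1-OE, and rose by 1.95 ± 0.21 on the log2 scale (edgeR adjusted p = 5.11e-09). NFASC, an adhesion molecule of axons, had 0.815 and 1.45 CPM and rose by 0.82 ± 0.18 (edgeR adjusted p = 0.00159). CNTN2, another such molecule, had 1.29 CPM in ctrl-KO, 2.21 CPM in MEIS1-KO and 2.78 CPM in MEIS2-KO, with log2 fold changes of 0.78 ± 0.19 (edgeR adjusted p = 0.0268) and 1.11 ± 0.19 (edgeR adjusted p = 0.000117). LRRC4C, the receptor of NTNG1, rose from 13.7 to 20.5 CPM in MEIS2-KO, by 0.58 ± 0.07 on the log2 scale. Of the 47 effectors 8 passed in MEIS1-OE (4 higher, 4 lower), 0 in MEIS2-OE, 1 in MEIS1-KO (lower) and 6 in MEIS2-KO (1 higher, 5 lower). MICAL2, a flavoprotein that acts on actin, was the 1 effector called, with 0.317 CPM in ctrl-KO and 0.747 CPM in MEIS2-KO.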

How the data were processed

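The deposited table holds raw read counts per gene for 36 libraries, with no normalization. Per the methods of the study the authors mapped the reads of stranded poly-A libraries to hg19 with STAR and counted them with HTSeq, and the submitters' processing notes name Trimmomatic 0.39 and STAR 2.7.0a, while the methods name another version of STAR, and which was used for these files is not settled here. The annotation and strand setting of the counting are not given in the sources used here. Every column was matched to a library by its name, and groups came from the labels. No library was dropped or imputed in the main analysis.

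Genes with at least 10 summed counts were kept (19689 of 28516). edgeR 4.0.16 (R 4.3.3) fitted 1 quasi-likelihood model over all 36 libraries and 6 groups, with TMM normalization, a prior count of 0.125 and Benjamini-Hochberg adjustment over all genes tested. The common biological coefficient of variation was 0.0915. A gene passed at an adjusted p under 0.05 and was called if its absolute log2 fold change also exceeded 0.58. The script was tested on simulated data. CPM was computed from the deposited counts with TMM library sizes. Exonic length, GC, span and positions came from GENCODE gene models on GRCh37, with all annotated exons of a gene merged, and promoters from RefSeq on GRCh38.p14. Exonic GC was found for 86% of the genes tested.

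The genes and lists were chosen with earlier results of these data known. Named with values were members called in any of the 4 perturbation comparisons or 2 contrasts, those that passed in at least 2 of these 6, the 2 with the highest level per exonic kilobase in each family, and, between the controls, the 5 higher and the 5 lower members of smallest p, 33 in all, and further members are named where a count is small, after their values were seen. Alternatives were DESeq2 1.42.0, other size factors, filters and prior count, a fit on the compared groups alone, a replicate block and each replicate number left out of all conditions in turn. An offset for exonic GC and a fit without the 3 libraries farthest in GC slope were chosen after seeing the data.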

Additional observations from a re-analysis of the deposited data

Results flagged for a closer look

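Among the 33 named genes, 19 of 198 sets of 6 libraries held a highest or lowest library whose gap to the next exceeded 0.625 of the range, where chance flags about 1 in 20 sets. Several of these were in the libraries that stand apart in GC slope. In ctrl-OE replicate 6 was the highest library for EPHB4 at 141.8 CPM, PLXNB2 at 521.4 CPM, NTN1 at 44.59 CPM and NTN3 at 1.5 CPM. MEIS1-OE replicate 3 was the highest for EFNA5 at 94.11 CPM and the lowest for SEMA4C at 86.71 CPM, PLXNB2 at 248.9 CPM and UNC5B at 2.416 CPM, and MEIS1-KO replicate 6 was the highest for SLIT1 at 5.131 CPM. The other single high libraries were EPHA3 in MEIS2-OE replicate 1 (25.66 CPM), SEMA3F and ROBO4 in ctrl-KO replicate 4 (3.719 and 6.023 CPM) and NRP1 in ctrl-KO replicate 2 (150.0 CPM). The other single low libraries were EFNA1 in MEIS2-OE replicate 2 (2.417 CPM) and in MEIS1-KO replicate 2 (0.1049 CPM), EFNB2 in MEIS2-OE replicate 6 (210.6 CPM) and in MEIS2-KO replicate 1 (383.3 CPM), SLIT2 in MEIS1-KO replicate 2 (187.5 CPM) and UNC5C in MEIS2-KO replicate 1 (62.77 CPM). The part of GC content in these values was not tested.

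The effects of MEIS1-OE and MEIS2-OE differed by edgeR's test for 9 genes, given as MEIS1-OE minus MEIS2-OE on the log2 scale. The difference was 0.378 for EPHB3, -0.2343 for SEMA3A, 0.718 for SEMA3G, -0.3956 for SEMA6A and 0.4075 for SEMA7A. It was 0.4533 for PLXNA2, 0.2823 for NRP1, -0.3388 for ROBO3 and 0.5047 for UNC5B.

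The effects of overexpression and knockout differed for 5 genes of the MEIS1 contrast and 6 of the MEIS2 contrast. EPHA4 had contrasts of 0.8789 (MEIS1) and 1.116 (MEIS2), EFNB2 of 0.2228 and 0.2344, SEMA6A of 0.3922 and 0.7925, and SLIT2 of -0.3676 and -0.3083. DCC had a MEIS1 contrast of -0.3143, and SEMA3A and UNC5B had MEIS2 contrasts of 0.5985 and -0.7207.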

How the results depend on the processing

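Of the 43 results of single genes that passed in the 6 MEIS comparisons, 26 passed in all 15 alternatives, 17 were lost in at least 1 and 0 reversed, and of 43 between the controls 38 passed in all. With each replicate number left out in turn, the genes called ranged from 0 to 3 in MEIS1-OE, 2 to 3 in MEIS2-OE, 0 to 0 in MEIS1-KO, 3 to 5 in MEIS2-KO, 1 to 1 and 2 to 4 in the MEIS1 and MEIS2 contrasts, 29 to 32 between the controls and 1 to 1 between the overexpressions. In MEIS1-OE the 0 came without replicate 3 and the 3 without replicate 6, where SEMA3G and EPHA8 (a gene under 1 CPM) were called, and in the MEIS2 contrast the 2 came without replicate 1, where SEMA3A had 0.54. DESeq2, the replicate block and the offset for exonic GC each called 1 gene in MEIS1-KO, ROBO4, at 0.64, 0.62 and 0.60. ROBO4 was not called there without the 3 libraries farthest in GC slope, a fit that called 0.286% of all genes. Without the 3 libraries farthest in GC slope 2 genes were called in MEIS1-OE, 3 in MEIS2-KO, 7 in the MEIS2 contrast, 32 between the controls and 3 between the overexpressions. Of all genes in this alternative 3.87%, 1.92%, 1.32%, 22.1% and 3.37% were called in these comparisons. At adjusted p alone this alternative passed 22 genes in MEIS1-OE, 24 in MEIS2-KO, 14 in the MEIS1 contrast and 21 between the overexpressions, against 9, 16, 5 and 9, while the share of all genes that passed was 18.4%, 15.1%, 7.72% and 15.3% against 9.1%, 10.0%, 3.48% and 7.75%. None of the 3 libraries left out is of MEIS2-KO or ctrl-KO, so that fit is no check of GC content in MEIS2-KO. The offset for exonic GC passed 8 in MEIS1-KO against 2, while the share of all genes that passed was 4.86% against 1.46%. The cause of these shifts was not tested.

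The replicate numbers are shared by all conditions, but nothing in the labels says what they mark. Between conditions, deviations of same-numbered libraries correlated at a mean of 0.118, with 50 of 90 pairs over 0.1. Those of libraries with different numbers correlated at a mean of -0.025, with 155 of 450 pairs over 0.1. The main fit did not pair libraries by number, and whether the numbers mark a batch was not tested. With the replicate block 1, 2, 1, 3, 1, 5, 31, 1 and 0 genes were called in MEIS1-OE, MEIS2-OE, MEIS1-KO, MEIS2-KO, the MEIS1 and MEIS2 contrasts, the controls, the overexpressions and the knockouts. For the replicate block, DESeq2 and the fits with a replicate left out, the share of all genes called is not given here. Counts of members called in those fits therefore have no background beside them.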
